A study of Mus musculus with 20 samples.

Results

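Reactive glia genes are transcripts that astrocytes and neighbouring glia raise in injured, inflamed or amyloid-bearing brain. Of the 32285 genes in the files, 9 such genes were followed across hippocampal cell classes, genotypes and anesthesia: Osmr, Stat3, Gfap, Vim, Cd44, C4b, C3, Serpina3n and H2-D1. The members were taken as a list by name, with no threshold on their values but with earlier results of these data known. Their unique molecular identifiers (UMIs, 1 per captured RNA molecule) were summed per mouse over nuclei gated by marker genes as astrocytes, oligodendrocytes, microglia or neurons, and no member was a gate marker.

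Single nuclei RNA-sequencing (snRNAseq) of hippocampus covered 20 male mice of 4.5 to 5.5 months. They were APP/PS1 mice, which carry mutant human amyloid precursor protein (APPSwe) and presenilin 1 (PS1ΔE9) transgenes, and wild-type (WT) littermates. In this line the transgenes are driven by the mouse prion promoter. By the labels, 6 mice were WT-Wake (mice 1, 12, 13, 14, 19 and 29) and 3 were APP/PS1-Wake (mice 2, 10 and 17). Isoflurane, started at 5% and lowered to 1.5%, had been given to 3 WT mice (3, 16 and 18) and 4 APP/PS1 mice (4, 11, 15 and 20). Ketamine at 150 mg/kg with xylazine at 12 mg/kg had been given to 2 APP/PS1 mice (25 and 26) and 2 WT mice (27 and 28), and the anesthetized mice were killed after 3 h. The series text and the study's own text give other numbers of mice per group, and the labels were followed.

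A gp130-type receptor holding the oncostatin M receptor subunit OSMR activates Janus kinases, which phosphorylate the transcription factor STAT3. In astrocytes STAT3 raises the intermediate filament genes Gfap and Vim, and the hyaluronan receptor Cd44 is a further gene of reactive astrocytes. C4b and C3 encode central complement proteins, Serpina3n encodes a secreted inhibitor of serine proteases, and H2-D1 encodes a heavy chain of MHC class I. Gfap, C4b and Serpina3n are known to rise around amyloid plaques in mouse models.

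The files held 160777 nuclei, 4743 to 10877 per mouse, and 9243992 to 25394891 UMIs per mouse. The gate took 19877 nuclei as astrocytes (568 to 1743 per mouse), 15744 as oligodendrocytes (172 to 1181), 2608 as microglia (3 to 295) and 101458 as neurons (2576 to 7359). It left 5.79% to 24.1% of the nuclei of a mouse in no class, and mouse 12, with 3 microglia, was left out of microglial comparisons. Of 24 markers held out of the gate, 22 were highest in their own class, and the exceptions were the neuronal genes Nefm and Nrgn. Mice 1 to 4 stood apart by mitochondrial UMIs, 0.939% to 1.78% of the total against 0.0353% to 0.336% in the other 16 mice. Prnp in neurons, a check of the genotype labels, was 194 ± 132 CPM (UMIs of the gene per 1000000 UMIs of the sum; SD, n = 9) in mice labelled APP/PS1 and 74.3 ± 43.1 (n = 11) in mice labelled WT (exact permutation test, two-sided, p = 0.00873, adjusted over 12 tests 0.0262). The ranges overlapped, with mice 11 and 17 (labelled APP/PS1) at 50.1 and 59.0 and mouse 14 (labelled WT) at 173. The genotype changes of the members are therefore also given without these 3 mice. App in neurons, a second check, was 487 ± 72.0 CPM (SD, n = 9) in mice labelled APP/PS1 and 450 ± 50.7 (n = 11) in mice labelled WT. It did not separate the labels (exact permutation test, two-sided, p = 0.194, adjusted 0.259). No pair of libraries shared more than 35 cell barcodes.

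The members are protein-coding genes at these places of GRCm38: Gfap on chr11:102887336-102900912, Stat3 on chr11:100885098-100939540, Osmr on chr15:6813577-6874969, Cd44 on chr2:102811141-102901665, C4b on chr17:34728380-34743882 and C3 on chr17:57203970-57228136, all on the minus strand, and Vim on chr2:13573927-13582826, Serpina3n on chr12:104406729-104414329 and H2-D1 on chr17:35262730-35267499 on the plus strand. Introns were counted with exons, so UMIs come from whole gene bodies of 4.77 to 90.5 kb and levels of different members are not set against each other. C4b, Serpina3n and H2-D1 have near-identical copies (C4a, other serpin A3 genes and H2-K1), from which their reads may not always be told apart. Gfap, Cd44 and Stat3 each overlap an annotated gene on the opposite strand, and C3 one on its own strand.

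The promoter letters of the 5 members on which the anesthesia results turn are shown because 3 of them hold a match to 1 of 3 motifs of factors tied to this pathway or to the stress response. Each run covers 150 bases before and 10 bases from the transcription start, 5′ to 3′ on the gene's strand, from the RefSeq promoter table (GRCm38.p6). They lie at chr11:102897191-102897350 (Gfap), chr15:6874304-6874463 (Osmr), chr11:100939531-100939690 (Stat3) and chr2:102901656-102901815 (Cd44) on the minus strand and at chr12:104406558-104406717 on the plus strand (Serpina3n). Capitals mark the STAT-type motif TTCNNNGAA in Gfap, the AP-1-type motif TGANTCA in Osmr and the glucocorticoid-type motif ACANNNTGT in Serpina3n.
Gfap: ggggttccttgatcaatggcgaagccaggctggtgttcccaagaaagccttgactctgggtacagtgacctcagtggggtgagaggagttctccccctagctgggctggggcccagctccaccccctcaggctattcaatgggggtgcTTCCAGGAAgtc
Osmr: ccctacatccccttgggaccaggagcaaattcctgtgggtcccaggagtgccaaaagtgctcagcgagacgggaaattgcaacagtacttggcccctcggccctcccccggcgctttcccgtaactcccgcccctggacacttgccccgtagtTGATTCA
Stat3: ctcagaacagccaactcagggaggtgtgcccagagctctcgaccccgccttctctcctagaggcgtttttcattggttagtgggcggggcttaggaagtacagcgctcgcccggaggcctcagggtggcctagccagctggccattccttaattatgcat
Cd44: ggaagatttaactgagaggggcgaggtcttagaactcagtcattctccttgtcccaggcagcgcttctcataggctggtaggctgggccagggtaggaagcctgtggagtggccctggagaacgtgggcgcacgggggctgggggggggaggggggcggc
Serpina3n: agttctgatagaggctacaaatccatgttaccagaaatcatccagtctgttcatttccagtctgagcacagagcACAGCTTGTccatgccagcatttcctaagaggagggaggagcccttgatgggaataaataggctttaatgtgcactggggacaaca

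The 3 motifs read alike on both strands, and they were sought in windows of 300 bases around the starts in a table of 32851 promoters, which held 8 of the 9 members. TTCNNNGAA was in 8.30% of all promoters and, among members, at base -2 of Gfap. TGANTCA was in 7.81% of promoters and at base 4 of Osmr, and ACANNNTGT was in 6.85% and at base -76 of Serpina3n. No member held more than 1 of these matches. Each motif was in 1 of the 8 members, too few to set the members apart from these shares. A match is a run of letters, and no binding was measured.

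Astrocytes held most of the Gfap and C4b molecules of the hippocampus. Of 9917 Gfap UMIs, 59.7% were in gated astrocytes, and Gfap ran from 118 to 696 CPM over the 20 mice (median 242, mean 270 ± 137, SD) in astrocytes against 1.98 to 18.9 CPM (7.33 ± 4.96) in neurons. Every mouse was higher in astrocytes than in ependymal or choroid plexus nuclei, the next class (16 of 16 mice with both; permutation test, two-sided, 100000 resamples, adjusted p = 0.000481 over 63 pairs of neighbouring classes). C4b had 2598 UMIs, 63.0% in astrocytes, at 21.3 to 110 CPM (69.7 ± 25.4), above mural or fibroblast nuclei at 31.3 ± 45.5 (n = 18; higher in 15 of 18 mice, permutation test, adjusted p = 0.00353). Oligodendrocytes came next for C4b at 14.3 ± 7.81 CPM.

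**Figure D1:**
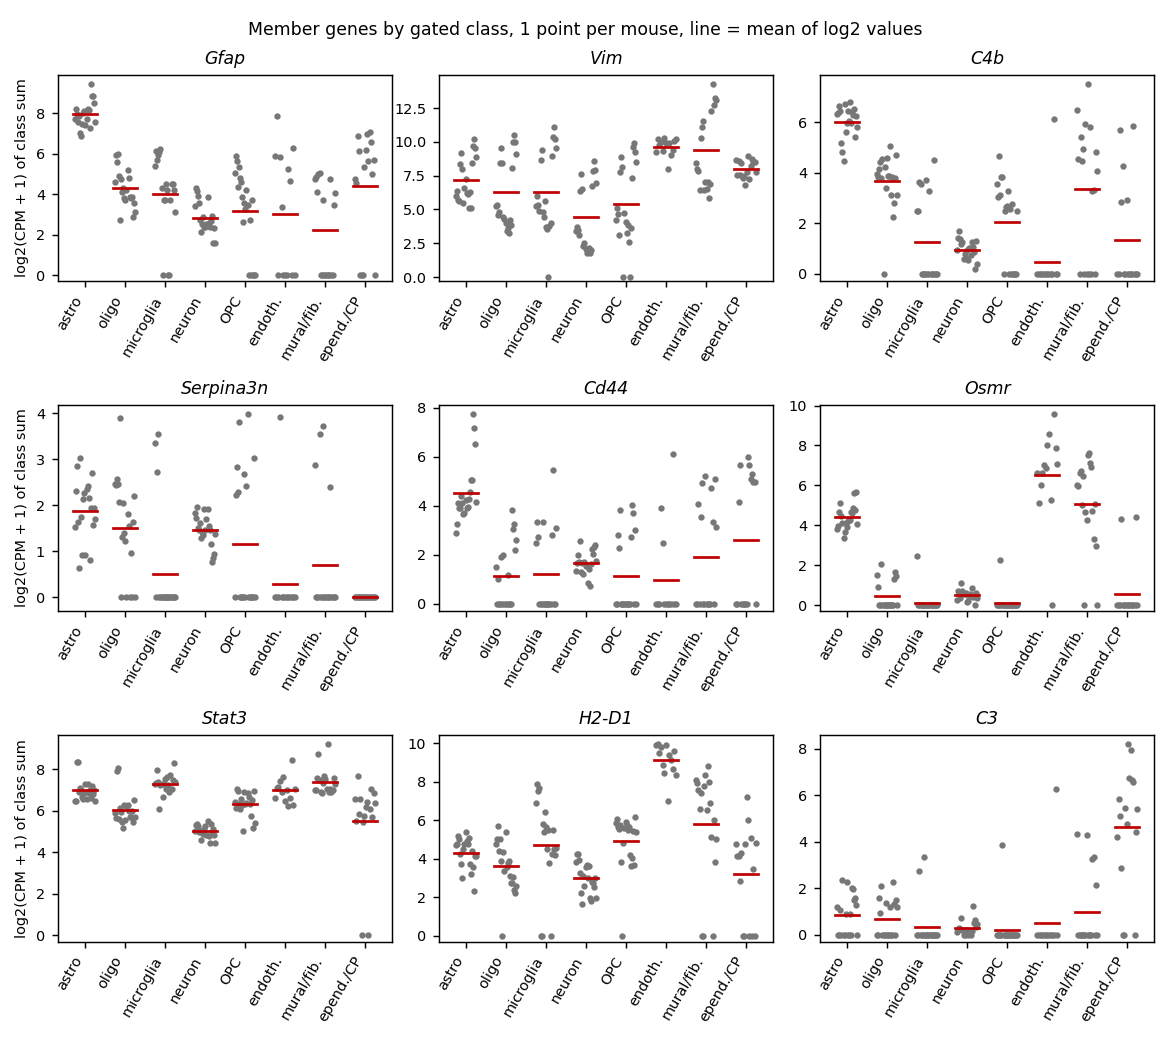
Level of each member per gated class, from UMIs summed per mouse and class (1 panel per member, 1 point per mouse, log2(CPM + 1), line at the mean of the log2 values). The astrocyte line is the highest for Gfap, C4b and Cd44, the endothelial line for Osmr and H2-D1, and the ependymal or choroid plexus line for C3.

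To set a share of nuclei beside these levels, each nucleus was thinned to 500 UMIs, which left out none. A Gfap UMI was then seen in 5.22% to 24.1% of astrocytes (median 9.55%) and in a median 0.397% of neurons, a class that should lack it. Without thinning the astrocyte share was 7.53% to 54.5%, at a median depth of 961 UMIs in astrocytes and 2300 in neurons. C4b was seen in a median 3.32% of astrocytes and 0.0573% of neurons. Serpina3n was seen in 0.157% of astrocytes and 0.0957% of neurons, which are close to each other.

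Serpina3n was sparse throughout. Of its 736 UMIs, 555 were in neurons, the largest class, and 67 in astrocytes. On the CPM scale, astrocytes (3.07 ± 1.81), oligodendrocyte precursors (2.92 ± 4.50), oligodendrocytes (2.71 ± 3.12) and neurons (1.83 ± 0.636) were close, and astrocytes and precursors did not differ beyond their spread (permutation test, adjusted p = 0.150). C3 was sparser still with 245 UMIs, of which 79 were in nuclei of no class and 69 in neurons. A further 48 were in ependymal or choroid plexus nuclei (67.7 ± 86.4 CPM, n = 16) and 24 in astrocytes (1.15 ± 1.37 CPM).

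Osmr, Stat3, Cd44 and H2-D1 were shared more widely among classes. Astrocytes, a larger class than endothelial or mural nuclei, held 47.0% of the 1072 Osmr UMIs, 41.3% of the 1697 of Cd44, 19.1% of the 16904 of Stat3 and 9.17% of the 5484 of H2-D1. By level Osmr was highest in endothelial nuclei (180 ± 202 CPM, n = 13), then in mural or fibroblast nuclei (66.6 ± 61.8) and astrocytes (22.3 ± 11.0). Neither step between neighbours passed the test (permutation test, adjusted p = 0.126 and 0.404). Endothelial nuclei were not tested against astrocytes. Below astrocytes Osmr dropped to 2.45 ± 6.71 CPM in ependymal or choroid plexus nuclei (permutation test, adjusted p = 0.000481). Stat3 was at 188 ± 121 CPM in mural or fibroblast nuclei, 165 ± 53.7 in microglia, 138 ± 70.9 in endothelial nuclei and 136 ± 66.9 in astrocytes, and only the step from astrocytes to oligodendrocyte precursors (83.6 ± 29.6) passed the test among the first 5 classes (permutation test, adjusted p = 0.000481). Cd44 was highest in astrocytes (36.8 ± 52.7 CPM), above ependymal or choroid plexus nuclei (permutation test, adjusted p = 0.0497). H2-D1 was highest in endothelial nuclei, at 632 ± 280 CPM against 143 ± 132 in mural or fibroblast nuclei (permutation test, adjusted p = 0.00879). In all, 15 of the 63 neighbouring pairs differed.

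Vim divided the libraries and not only the classes. In mice 10 to 12 and 25 to 29 it was 255 to 1197 CPM in astrocytes, 271 to 1431 in oligodendrocytes, 395 to 2208 in microglia and 83.5 to 385 in neurons. In the other 12 mice the same classes had 32.7 to 153, 8.81 to 39.0, 0 to 63.7 and 2.49 to 11.9 CPM. Without overlap the 8 libraries lay above the other 12 in astrocytes, oligodendrocytes and neurons, and in microglia 7 of the 8 did, mouse 12 being left out there. The 8 include all 4 ketamine mice together with 3 Wake mice and 1 APP/PS1 isoflurane mouse besides. The collagen gene Col1a2, a fibroblast marker, moved with Vim in astrocytes, at 38.4 to 234 CPM in these 8 libraries against 0.760 to 7.96. The 10 mural or fibroblast markers summed to 238 to 548 CPM against 97.3 to 298, and none of the 10 was at 0 over the astrocytes. By their means 9 of 10 were higher, but Pdgfrb (94.9 against 92.8 CPM) and Vtn (9.26 against 8.58) only barely. Dcn, also a fibroblast marker, was lower (11.8 against 12.3). The largest differences of means were those of Col1a2, Bnc2 (44.2 against 2.99) and Col3a1 (33.6 against 0.564). Mural or fibroblast nuclei were 0.151% to 6.56% of the nuclei in the 8 and 0.0644% to 1.86% in the 12. Their part in the Vim values was not tested.

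**Figure D2:**
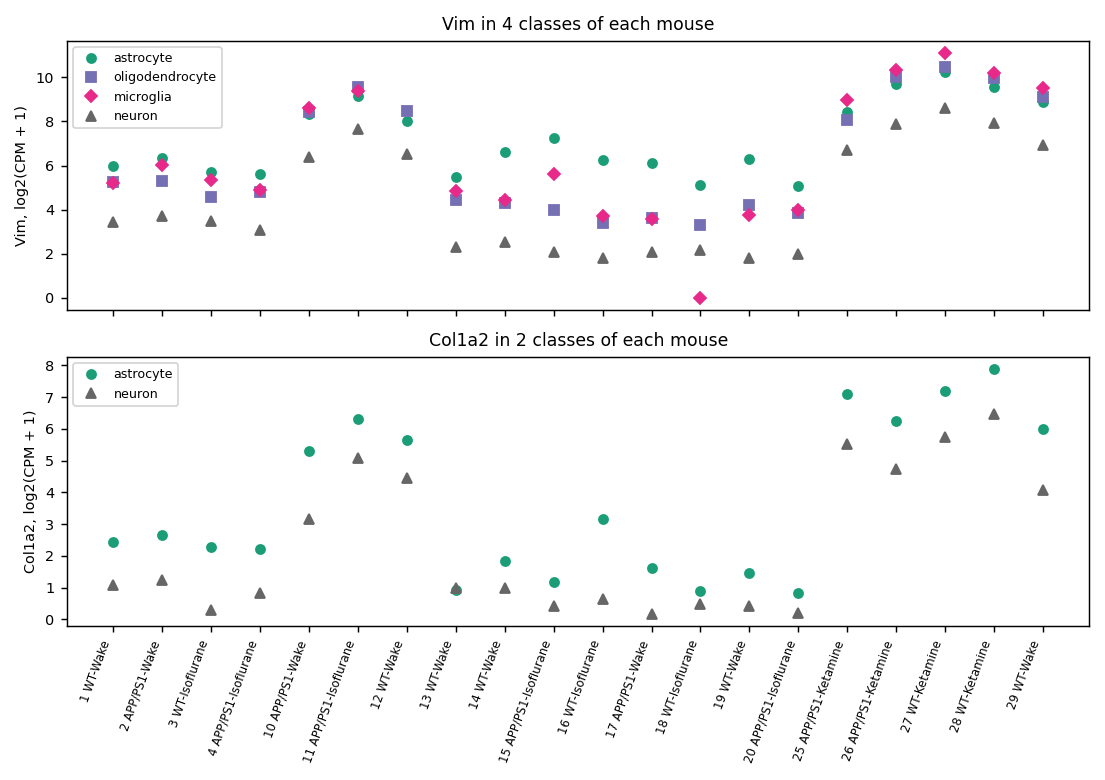
Vim in the 4 classes (top) and Col1a2 in astrocytes and neurons (bottom) of each mouse, as log2(CPM + 1), with mice ordered by number and labelled with their group (1 point per mouse and class). Mice 10 to 12 and 25 to 29 lie above the other 12 mice for Vim in every class, whichever treatment they carry, except that mouse 12 has too few microglia.

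The first comparison asked whether the members differ between APP/PS1 and WT hippocampus at this age. All mice entered 1 edgeR quasi-likelihood fit per class on summed UMIs, with genotype and treatment as terms. A sum per class does not tell fewer nuclei of a type from less RNA per nucleus. In astrocytes 7 members passed the filter on low counts (Serpina3n and C3 did not), in oligodendrocytes 5, in microglia 3 and in neurons 8. In this fit no member was called in any class or had an unadjusted p under 0.05, and 0% of all genes tested were called in astrocytes, 0% in oligodendrocytes, 0% in microglia and 0% in neurons (edgeR, adjusted p under 0.05). Prnp in neurons, whose level differed between the labels in the check above, was thus not called in this fit either. A missing call therefore does not show equal levels. At an unadjusted p under 0.05 edgeR had 287 of 12690 genes in astrocytes, 175 of 10444 in oligodendrocytes, 64 of 3627 in microglia and 283 of 19346 in neurons, and DESeq2 called 0 genes in each of the 4 classes. A fit of 6 group means, which also gives genotype within each treatment, had unadjusted p-values under 0.05 for C4b in oligodendrocytes (-0.61 over treatments and -1.98 with ketamine), Gfap and C4b in neurons of Wake mice (1.11 and 1.09) and Vim in astrocytes and oligodendrocytes with isoflurane (1.98 and 3.78), and none after adjustment (edgeR).

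Gfap in astrocytes was 118 to 455 CPM (median 249) in the 11 mice labelled WT and 128 to 696 CPM (median 235) in the 9 labelled APP/PS1, so the ranges overlapped. Both highest values were of ketamine mice (27 and 25), and the Wake and isoflurane mice of both genotypes lay at 118 to 297 CPM. The log2 fold change was 0.09 (SE 0.17, interval of 2 SE -0.25 to 0.43, edgeR adjusted p = 1.00). C4b was 21.3 to 110 CPM (median 74.9) in WT and 27.4 to 90.2 (median 77.3) in APP/PS1, a log2 fold change of -0.15 (SE 0.24, edgeR adjusted p = 1.00). Without mice 11, 14 and 17 the values were 0.22 for Gfap and -0.07 for C4b in astrocytes, and edgeR called no member in any of the 4 classes. C3 was counted with 18 UMIs in APP/PS1 astrocytes and 6 in WT, too few to test. Of the 104 further genes of the pathway and reactive glia lists, 45 were tested in astrocytes and none was called.

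Genotype and isoflurane were also crossed: a change of the isoflurane effect with genotype was called for 0 of the 7 members in astrocytes, beside 0% of 12690 genes (edgeR, with 424 genes at an unadjusted p under 0.05). For Gfap the interaction was -0.51 on the log2 scale (SE 0.37, edgeR adjusted p = 0.955).

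Isoflurane came with a higher level of 1 member, the signal carrier Stat3, in astrocytes and oligodendrocytes. In astrocytes of Wake mice Stat3 was 86.4 to 128 CPM (median 93.8, n = 9), and in isoflurane mice 114 to 322 CPM (median 154, n = 7). Mice 3 and 4 stood at 320 and 322, the other 5 isoflurane mice at 114 to 156, and the ranges overlapped slightly. Stat3 rose by 0.94 on the log2 scale (SE 0.21, edgeR adjusted p = 0.00605), where 8.8% of all genes tested in astrocytes were called. The call held with each mouse left out in turn, and the share of astrocytes with a Stat3 UMI in 500 was 8.91% ± 3.49 (n = 7) against 4.81% ± 1.01 (n = 9; exact permutation test, two-sided, p = 0.000524, adjusted 0.00629). Counted in all UMIs of a nucleus the difference in that share did not pass (exact permutation test, p = 0.0531). Without mice 1 to 4, which also had the most mitochondrial UMIs, the log2 change was 0.41 and not called (edgeR adjusted p = 0.0868), and without mice 3 and 4 alone it was 0.45 (adjusted p = 0.0401).

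Labels name no batch, so mice of neighbouring numbers were compared with each other. Among mice 1 to 4 the mean of Stat3 in isoflurane astrocytes was 3.66 times that of Wake astrocytes, among mice 10 to 13 it was 1.19 times, among 14 to 17 1.44 times and among 18 to 20 1.22 times. The direction was the same in the 4 runs, each of which held 3 or 4 mice.

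In oligodendrocytes Stat3 was 34.5 to 74.1 CPM (median 50.5) in Wake mice and 45.8 to 266 CPM (median 75.6) in isoflurane mice. Again mice 3 and 4 stood apart at 243 and 266. The other isoflurane mice lay at 45.8 to 77.8, within the Wake range but for the values of 75.6 and 77.8 just above it. Stat3 rose by 1.27 (SE 0.34, edgeR adjusted p = 0.0241, with 7.22% of all genes called), and the call was lost when either mouse 3 or mouse 4 alone was left out (adjusted p up to 0.156, log2 change down to 0.82). Isoflurane means were 4.72 times the Wake means among mice 1 to 4 and 1.37, 1.14 and 1.03 times in the later 3 runs. In microglia 0 of 3 members and in neurons 0 of 8 were called, beside 0.827% and 8.28% of all genes. In this edgeR fit, with genotype and treatment as terms, 0 of them had an unadjusted p under 0.05. C4b in oligodendrocytes was 20.3 ± 6.71 CPM (n = 7) under isoflurane and 10.8 ± 5.23 (n = 9) in Wake mice, a log2 difference of 0.89 that did not pass (edgeR adjusted p = 0.108).

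Gfap was not called under isoflurane. In astrocytes it was 128 to 292 CPM (median 192) in isoflurane mice and 118 to 297 CPM (median 213) in Wake mice, with a log2 fold change of -0.11 (SE 0.19). Log2 changes of Cd44 (0.49), Osmr (0.37), C4b (0.36), H2-D1 (0.37) and Vim (-0.45) were not called either.

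**Figure D3:**
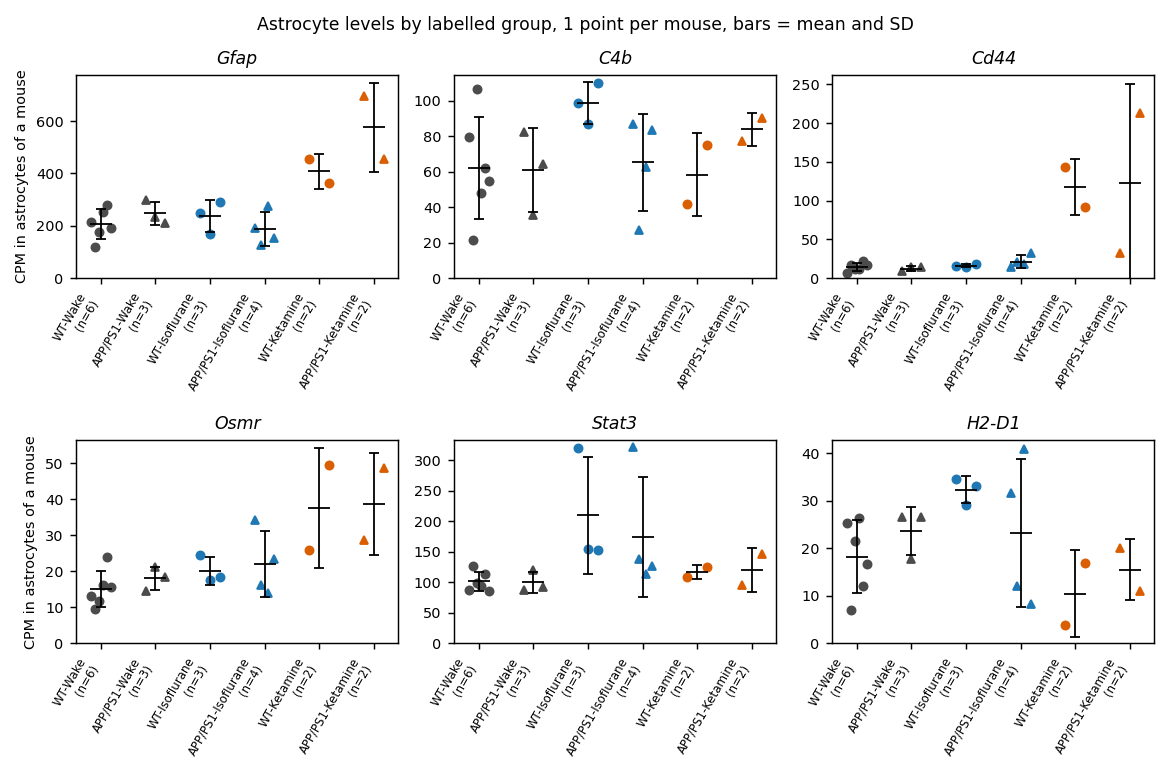
Gfap, C4b, Cd44, Osmr, Stat3 and H2-D1 in astrocytes by group, in CPM (1 point per mouse, 6 groups of genotype and treatment, bars at the mean and SD). The 4 ketamine mice lie at 362 to 696 CPM for Gfap, above all Wake and isoflurane mice, and isoflurane mice 3 and 4 lie at 320 and 322 CPM for Stat3.

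With ketamine and xylazine 4 of the 7 members tested in astrocytes were higher than in Wake mice, where 8.01% of all genes were called: the receptor Osmr and the reactive astrocyte genes Gfap, Cd44 and Vim. Gfap was 696, 455, 455 and 362 CPM in mice 25, 26, 27 and 28, and 118 to 297 CPM (median 213) in the 9 Wake mice. All 4 lay above every Wake and isoflurane mouse. Gfap rose by 1.23 on the log2 scale (SE 0.22, edgeR adjusted p = 0.00173).

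Cd44 was 32.4, 213, 143 and 91.8 CPM in the same 4 mice and 6.34 to 22.4 CPM (median 13.9) in Wake mice. The groups did not overlap, mouse 25 was the lowest of the 4, and isoflurane mouse 20 reached 32.7. The log2 change was 3.23 (SE 0.34, edgeR adjusted p = 9.63e-06). Osmr was 28.6, 48.8, 25.9 and 49.4 CPM against 9.45 to 24.1 CPM (median 15.7) in Wake mice, again without overlap, with a log2 change of 1.28 (SE 0.25, edgeR adjusted p = 0.00304). In isoflurane mice Osmr was 14.1 to 34.2 CPM, which overlapped the ketamine mice.

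These 3 calls held with each mouse left out in turn and in 9 of 10 other analyses, and were lost in the 1 that compared mice only within runs of neighbouring numbers. Mice 25 to 28 share such a run with a single Wake mouse, number 29, so ketamine and the run cannot be told apart beyond that mouse. Mouse 29 had 192 CPM of Gfap, 16.8 of Cd44 and 15.7 of Osmr in astrocytes, each below all 4 ketamine mice. With the runs as a block the log2 changes were 1.29 for Gfap, 2.73 for Cd44 and 1.19 for Osmr (edgeR adjusted p = 0.353, 0.217 and 0.588).

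The fibroblast marker Col1a2 in astrocytes was 74.5 to 234 CPM in the ketamine mice, 38.4, 49.6 and 62.8 CPM in Wake mice 10, 12 and 29, and 0.901 to 5.32 CPM in the other 6 Wake mice. The 10 mural or fibroblast markers summed to 238 to 548 CPM with ketamine and 97.3 to 376 CPM in Wake mice. In Wake mice 10, 12 and 29 Col1a2 was raised but lower than in all 4 ketamine mice. Gfap, Cd44 and Osmr were also lower in these 3 than in all 4 ketamine mice. The part of this marker signal in the 3 changes was not tested.

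The share of astrocytes with a Gfap UMI in 500 was 18.0% ± 4.24 (n = 4) with ketamine and 9.10% ± 1.98 (n = 9) in Wake mice (exact permutation test, two-sided, p = 0.00280, adjusted 0.0112). For Cd44 the shares were 4.96% ± 3.02 and 0.725% ± 0.421 (exact permutation test, adjusted p = 0.0269), and for Osmr 1.61% ± 0.476 and 0.696% ± 0.236 (adjusted p = 0.0112). Astrocytes were 11.8% ± 1.88 of the nuclei with ketamine and 12.8% ± 2.53 in Wake mice (exact permutation test, adjusted p = 0.503). Outside astrocytes Gfap was 2.00 to 6.66 CPM in neurons of ketamine mice and 1.98 to 18.9 in Wake mice, and its log2 change there was -0.70 and not called (edgeR). Cd44, under the count filter in oligodendrocytes, was 3.62 to 13.2 CPM there with ketamine (25 UMIs) and 0 to 5.05 in Wake mice (9 UMIs). In neurons Cd44 was 3.08 to 4.36 CPM against 0.670 to 4.94 and was not called. Osmr in neurons was 0 to 0.528 CPM against 0.195 to 1.14.

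**Figure D4:**
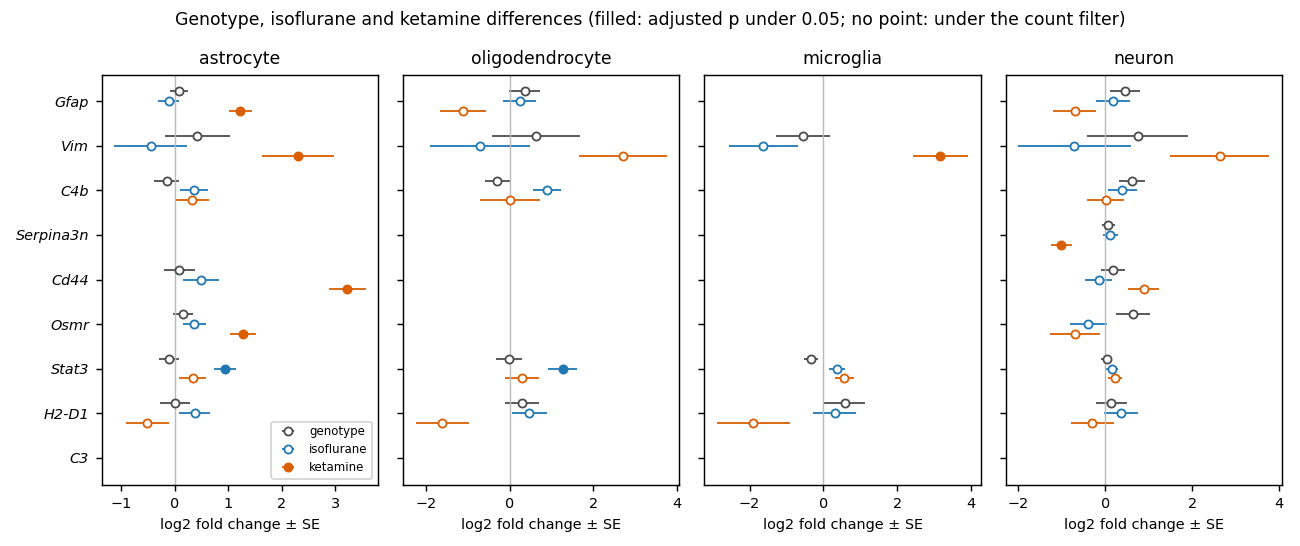
Log2 fold changes of the members tested, by class and contrast (points with bars of 1 SE, edgeR; filled where the adjusted p is under 0.05, no point for a member under the count filter). In astrocytes the ketamine points of Cd44 (3.23), Vim (2.31), Osmr (1.28) and Gfap (1.23) are called, and no genotype point is filled in any class.

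Vim in ketamine astrocytes was 344, 828, 1197 and 760 CPM against 43.3 to 466 CPM in Wake mice, with an overlap at mouse 29 (466). Its log2 change of 2.31 (SE 0.67, edgeR adjusted p = 0.0365) was lost when any 1 of mice 1, 2, 13, 14, 17, 26, 27 or 28 was left out (adjusted p up to 0.178). It was also lost without mice 1 to 4, with a gate on 5 markers and with the runs as a block, and the Vim-high libraries described above hold all 4 ketamine mice. In microglia Vim was the 1 member of 3 called, beside 0.717% of all genes, at 507 to 2208 CPM against 10.9 to 741, and this call held in 3 of 19 analyses that left out 1 mouse. In oligodendrocytes edgeR called 0 of 5 members, beside 3.7% of all genes, and 2 (Vim and H2-D1) had an unadjusted p under 0.05.

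Stat3 was not called with ketamine in astrocytes, at 95.4, 146, 109 and 126 CPM in mice 25 to 28, mostly within the Wake range of 86.4 to 128 (log2 change 0.34, SE 0.25). Nor was the complement gene C4b, at 77.3, 90.2, 41.8 and 74.9 CPM against 21.3 to 106 (0.33, SE 0.32), or H2-D1, at 20.0, 11.0, 3.98 and 17.0 CPM against 7.09 to 26.6 (-0.51, SE 0.41). Whether the changes of Gfap and C4b under ketamine differ from each other was not tested.

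In neurons 1 of 8 members was called with ketamine, beside 14% of all genes, so the count gives no sign that the members stand apart there. Serpina3n was 1.23, 0.716, 0.800 and 0.924 CPM in mice 25 to 28 and 1.44 to 2.54 CPM (median 1.78) in Wake mice, from 41 and 252 UMIs. All 4 ketamine mice lay below all 9 Wake mice. Serpina3n fell by 1.01 on the log2 scale (SE 0.24, edgeR adjusted p = 0.00880). The call held with each mouse left out and was lost with the runs as a block (-0.87, edgeR adjusted p = 0.696), where mouse 29 had 1.60 CPM.

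The partners of the members were read from lists of pathway genes, 104 in all. With isoflurane 3 of the 45 tested in astrocytes were called, beside 8.8% of all genes, so the count gives no sign that the lists stand apart. Of these Fkbp5, a glucocorticoid target and chaperone partner of the glucocorticoid receptor, rose by 2.92 (edgeR adjusted p = 0.000245), B3gnt5, a glycosyltransferase, by 3.33, and Vcan, a proteoglycan of the matrix, fell by 1.55. In the JAK-STAT3 list 0 of 10 genes were called there. In oligodendrocytes 1 of 9 was, beside 7.22% of all genes: Cntfr, the receptor subunit for ciliary neurotrophic factor, rose by 1.23 (edgeR adjusted p = 0.000463). Fkbp5 in isoflurane astrocytes was 183 to 446 CPM in 5 mice and 31.6 and 55.7 in mice 3 and 11, against 11.2 to 52.3 in Wake mice, so mouse 3 was high for Stat3 and within the Wake range for Fkbp5.

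With ketamine 8 of the 45 were called in astrocytes, beside 8.01% of all genes. Lif, a cytokine that signals through gp130 and its own receptor, rose by 2.68 (edgeR adjusted p = 0.00368), the nuclear lamin gene Lmna by 1.76, Fkbp5 by 1.78, and Msn and Ezr, which link CD44 to actin, by 1.09 and 0.53. Tm4sf1 (-3.65), Nefl (-1.32) and B2m (-1.22), the light chain of MHC class I, fell. No complement gene was called in any class, among 7 tested in astrocytes and 8 in microglia, and no gene of the serpin A3 family passed the filter. Each ketamine call of these lists in astrocytes was lost with the runs as a block, as for the members. The log2 changes there were 3.29 for Lif, 1.56 for Lmna, 1.19 for Fkbp5, 1.21 for Msn and 1.04 for Ezr. They were -2.04 for Tm4sf1 and -0.85 for B2m, and Nefl turned to 0.098. With 1 mouse left out Lif and Lmna were called in 20 of 20 analyses, Ezr in 19, Msn and B2m in 18, Fkbp5 and Tm4sf1 in 15 and Nefl in 12. Without mice 1 to 4 Nefl and Msn were lost (edgeR adjusted p = 0.0897 and 0.0610).

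A comparison within each mouse asked which members went with Gfap from nucleus to nucleus. Astrocytes with a Gfap UMI among 500 (33 to 221 nuclei per mouse) were summed apart from the rest of the same mouse, and the sums were paired by mouse in edgeR. Gfap itself chose the nuclei, so its values are no result, and the division is a range of 1 measure and not a cell type. At most 4.76% of the astrocytes of a mouse held 5 or more Gfap UMIs. Of the other 8 members 3 were tested, and all 3 were higher in the Gfap-positive nuclei, where 12.5% of all genes tested were called.

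C4b was 39.9 to 403 CPM (median 158) in Gfap-positive astrocytes and 20.1 to 92.6 CPM (median 68.1) in the rest. It was higher in 20 of 20 mice, by 1.44 on the log2 scale (SE 0.11, edgeR adjusted p = 1.22e-18). Stat3 was 181 ± 102 CPM against 130 ± 64.9 (SD, n = 20), higher in 18 of 20 mice, a log2 difference of 0.48 (SE 0.089, edgeR adjusted p = 2.78e-05). Vim differed by 0.75 (SE 0.15, edgeR adjusted p = 0.000104) and was higher in 14 of 20 mice. The 14 were all 12 mice of low Vim, at a median of 179 against 50.8 CPM, and 2 of the 8 mice of high Vim, at 496 against 528 CPM. Whether the 2 sets of libraries differ in this was not tested.

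**Figure D5:**
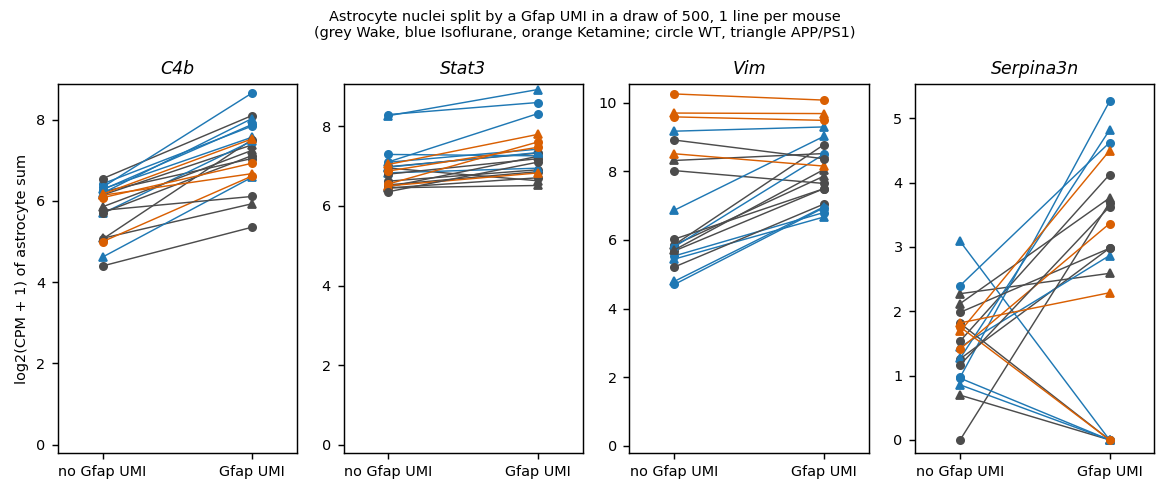
C4b, Stat3, Vim and Serpina3n in Gfap-positive and other astrocytes of the same mouse, as log2(CPM + 1) of the summed UMIs (1 line per mouse, 20 mice, Gfap UMI sought in 500 UMIs per nucleus). The C4b line rises from the other to the Gfap-positive nuclei in 20 of 20 mice and the Stat3 line in 18.

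The remaining members were below the filter and are given as values. Cd44 was 61.3 ± 64.6 CPM in Gfap-positive and 33.9 ± 50.8 in other astrocytes (higher in 17 of 20 mice), Osmr 37.3 ± 30.2 and 19.7 ± 8.75 (15 mice), Serpina3n 10.0 ± 10.6 and 2.21 ± 1.66 (14 mice, 24 and 43 UMIs), H2-D1 30.0 ± 23.9 and 20.2 ± 9.80 (12 mice) and C3 5.67 ± 15.1 and 0.794 ± 1.01 (5 mice). Among the list genes tested, 1 of 6 of the JAK-STAT3 list, 1 of 2 of complement, 1 of 2 of intermediate filaments, 3 of 3 of MHC class I, 1 of 3 of reactive astrocyte genes and 1 of 3 of CD44 partners were called. Clu (0.81), a secreted chaperone that limits complement, Plec (1.35), which links intermediate filaments, Il6st (0.96), which encodes gp130, Ggta1 (1.37), and the antigen presentation genes B2m (0.84), H2-K1 (0.66) and Tap2 (0.81) were higher, with Rdx (0.30), and none was called lower. Among all genes tested, Gfap aside, the smallest adjusted p was that of Myoc, a secreted protein (3.52, edgeR adjusted p = 1.14e-32).

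The 10 astrocyte markers summed to 1.65% of UMIs in Gfap-positive nuclei and 1.84% in the rest, higher in 0 of 20 mice. Not each of them was lower: Aqp4 was higher in Gfap-positive nuclei by 1.46 on the log2 scale (edgeR adjusted p = 4.46e-29). Gfap-positive nuclei had 1.24% ± 1.40 mitochondrial UMIs against 0.670% ± 0.880 in the rest, higher in 18 of 20 mice. Neuron markers were 0.0628% and 0.0687% of UMIs, higher in 4 of 20 mice, oligodendrocyte markers 0.0417% and 0.0400%, higher in 10 mice, and mural or fibroblast markers 0.0210% and 0.0253%, higher in 6. Markers of oligodendrocyte precursors were 0.0119% and 0.0104%, higher in 14 of 20 mice, and ependymal or choroid plexus markers 0.00420% and 0.00356%, higher in 13. Markers of microglia and endothelial nuclei were each higher in 8 mice. Their part in the differences was not tested.

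Some members moved with libraries and not with groups. C4b in astrocytes was lowest in mice 10, 11 and 12 (35.6, 27.4 and 21.3 CPM), which carry 3 different group labels, and 41.8 to 110 CPM in the other 17 mice. H2-D1 in microglia was 119, 232, 180 and 203 CPM in mice 1 to 4, Wake and isoflurane alike, and 0 to 84.2 CPM in the other 15 mice with enough microglia. These 4 are the mice with the highest mitochondrial share, and their H2-D1 was also highest in neurons, at 13.3 to 18.1 CPM against 2.11 to 11.8. As a description over the 20 astrocyte sums, which share libraries and depth, log2 levels of Cd44 and Osmr had a Pearson r of 0.755, Gfap and Osmr 0.616, Gfap and C4b 0.337, and Gfap and Stat3 -0.104. Vim, which divided the libraries, had an r of 0.69 with Cd44, 0.422 with Gfap, 0.396 with Osmr and -0.483 with C4b. The genes most like Gfap among 12690 were Dnajc3 (r = 0.83), Lrp2bp, Trnt1, Senp2 and Mapre1, and those most like C4b were Fyco1 (r = 0.80), Ubr7, Map2k2, Ccnl2 and Rbm11. Serpina3n was not among the genes tested in astrocytes and has no such list.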

How the data were processed

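Hippocampal nuclei of 20 mice were profiled with 10x Genomics 3′ snRNAseq, 1 library per mouse. The deposited values are raw UMI counts, whole numbers for each gene in each nucleus. Per the labels and methods they were made with Cell Ranger 5.0.0 on mm10, introns included. The methods go on to CellBender and DoubletFinder, while the header names Cell Ranger only, so whether these were applied to the deposited counts is not given in the sources used here. The kit version and the way of killing (perfusion or decapitation) differ between labels and methods, and the methods process tissue in batches that the labels do not name.

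From the counts, a nucleus was gated to 1 of 8 classes when at least 3 of 10 markers were detected, its marker score was at least 0.25 of the class median and at least 2 times that of every other class. Mixed nuclei (2.29% to 9.08% per mouse) stayed out as doublets would, and no doublet caller was run. Mice with under 10 nuclei of a class were left out of that class. Counts were summed per mouse and class and tested by the quasi-likelihood method of edgeR 4.0.16 in R 4.3.3, after its default gene filter and TMM scaling, with terms for treatment and genotype and Benjamini-Hochberg adjusted p-values over all genes tested (threshold 0.05); the paper's test on nuclei was not used, since nuclei of 1 mouse are not replicates. Levels of a class were compared with paired permutation tests on log2(CPM + 1), and single values with exact permutation tests (scipy 1.17.1, numpy 2.4.6, Python 3.11.15). Fits were tested on simulated data. The alternatives were DESeq2 1.42.0, no filter, a fit of 6 group means, runs of neighbouring mouse numbers as a block, mice 1 to 4 left out, a stricter gate, a gate on 5 markers, at least 500 genes per nucleus and each mouse left out. Leaving out mice 3 and 4, mice 10 to 12 and 25 to 29, or mice 11, 14 and 17, and the list of genes most like Vim, were chosen after seeing the data. Each library is from 1 mouse, and 9243992 to 25394891 UMIs per mouse set the precision. Every member is shown by its level in every class in a figure. Of the pathway lists the called genes are named, at most 4 per list with the smallest adjusted p. Prnp and App serve as label checks, and for likeness the 5 genes of largest r are given. The members and lists were chosen with earlier results of these data known.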

Additional observations from a re-analysis of the deposited data

Results flagged for a closer look

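In 46 groups of 4 to 6 mice the highest and lowest values of the members tested were set against the rest of the group, and in 9 groups 1 mouse stood far from the others. Chance marks about 1 in 20 groups. Mouse 4 (APP/PS1-Isoflurane) was highest of its 4 mice for Stat3 in astrocytes (322 CPM, the others 114 to 138), Stat3 in oligodendrocytes (266 CPM, the others 51.5 to 77.8), Gfap in oligodendrocytes (61.4 CPM, the others 5.52 to 13.3) and Gfap in neurons (14.2 CPM, the others 4.11 to 5.68). Mouse 11 of the same group was highest for Vim in oligodendrocytes (765 CPM, the others 13.3 to 27.1), in microglia (670 CPM, the others 15.0 to 48.1) and in neurons (199 CPM, the others 3.00 to 7.43). Mouse 29 was highest of the WT-Wake mice for Vim in microglia (741 CPM, the others 12.7 to 36.5). Mouse 14, also WT-Wake, was lowest for Stat3 in microglia (102 CPM, the others 153 to 166). The flags of mice 11 and 29 concern Vim alone and fall on the Vim-high libraries, and those of mouse 4 on the run of mice 1 to 4.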

How the results depend on the processing

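No 2 groups share a mouse number, so no replicate number pairs mice. Runs of neighbouring mouse numbers, some of which hold each Wake and isoflurane group, served as a block in place of paired mice and took the members called with ketamine to 0 in astrocytes, 0 in microglia and 0 in neurons. Without mice 1 to 4 the isoflurane count was 0 in astrocytes and 0 in oligodendrocytes. In oligodendrocytes it was 0 without mice 3 and 4, 0 without mice 10 to 12 and 25 to 29, and 2 without mice 11, 14 and 17 (Stat3, and Vim at -3.38), which also gave 1 in neurons (Vim) and 0 for ketamine in microglia. With no filter on low counts isoflurane had 1 member in microglia (Vim) and ketamine 2 in oligodendrocytes (Cd44 and Vim). DESeq2 and the fit of 6 group means gave 0 for ketamine in microglia. The Gfap genotype change turned to -0.042 without mice 10 to 12 and 25 to 29. With a Gfap UMI sought in all UMIs of a nucleus, which favours deep nuclei, 6 members were called instead of 3 (Cd44, Osmr and H2-D1 besides). The share of isoflurane astrocytes with a Stat3 UMI, sought in all UMIs of the nucleus, no longer passed the test against Wake mice (exact permutation test, p = 0.0531). The causes were not tested. With each mouse left out, counts ran from 0 to 2 for isoflurane in oligodendrocytes (0 without mouse 3 or 4, 2 without mouse 11), 0 to 1 in neurons (1 without mouse 11), and for ketamine 3 to 4 in astrocytes, 0 to 1 in oligodendrocytes (1 without mouse 11 or 29), 0 to 1 in microglia and 1 to 2 in neurons (2 without mouse 10 or 11). The log2 change of Vim with ketamine ran from 1.87 to 2.82 in astrocytes and 2.83 to 4.78 in microglia, and that of Stat3 with isoflurane in oligodendrocytes from 0.82 to 1.43. Single mice left out aside, 122 alternatives of the main values gave the same or a similar count, 11 fewer calls and 5 more. Similar counts can still differ: 15 neighbouring pairs of classes differed in the main setting, 10 with the stricter gate and 12 by shares of nuclei. For log2 changes of single genes, 100 alternatives kept direction and the side of the threshold, 15 lost the call and 1 changed direction. Serpina3n and C3 had the fewest UMIs of the members, at 736 and 245.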

Other observations

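Vim had its own set of most similar genes over the 20 astrocyte sums, a list added after its levels were seen: Gm10320 (Pearson r = 0.95), Olfr275, Rpl10l, Fcrla and Gm11361 (r of 0.94 to 0.95). Rank correlations of these 5 were lower, from 0.78 to 0.80.

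Neurons gave values outside the comparisons above. Of 72 list genes tested there 1 was called with isoflurane and 5 with ketamine, beside 8.28% and 14% of all genes. Isoflurane came with a lower Jak2, a kinase of the cytokine receptors, in neurons (log2 change -0.52, edgeR adjusted p = 0.00901), which held with each mouse left out in turn. With ketamine Il6st rose in neurons by 0.39 (edgeR adjusted p = 0.00964), Msn by 1.23 and Rdx by 0.50, and Cntf and Nefl fell by 1.65 and 1.01. Each of these 5 calls was lost with the runs of neighbouring mice as a block. There Il6st, Msn and Rdx were at 0.26, 0.74 and 0.19, and Cntf and Nefl turned to 0.60 and 0.099. Of 20 analyses that left out 1 mouse, Il6st was called in 19, Cntf in 17, Msn and Nefl in 11 and Rdx in 6, and without mice 1 to 4 Msn, Nefl and Rdx were lost (edgeR adjusted p = 0.0934, 0.0621 and 0.0852). In oligodendrocytes 4 of 32 list genes were called with isoflurane and 1 with ketamine, beside 7.22% and 3.7% of all genes. Besides Cntfr, isoflurane came with higher Synm (0.94) and Fkbp5 (1.43) and lower Cp (-0.96), and ketamine with higher Lmna (1.49). With the runs as a block Fkbp5 and Lmna were lost there, at log2 changes of 1.09 and 1.06 (edgeR adjusted p = 0.0713 and 0.840). Synm (0.92) and Cp (-0.99) were called. With 1 mouse left out Fkbp5 and Lmna were each called in 15 of 20 analyses, Synm in 10 and Cp in 7.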
